A study of Mus musculus with 12 samples.

Results

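Cxcl1 and 9 acute-phase and inflammation genes (Saa1, Saa2, Saa3, Lcn2, Orm2, Hp, Crp, Socs3 and Tnfaip2) were followed liver by liver in female and male mice fed chow or chow with simvastatin. The 10 genes were chosen by name, with the statin against chow values of the same 12 livers known, and they are 10 of the 11968 genes that were tested and of the 26304 genes with a count in any liver. The comparison of statin with chow within each sex is therefore given as a description, and counts of calls there are printed once, beside those of all genes, as no evidence about these genes. The comparison of females with males on each diet is tested, although it draws on the same livers. Each of the 10 genes was above 1 CPM (its count scaled to the library total) in all 12 livers, the lowest count of any of them in a liver being 89 reads (Saa3), so none entered the test through 1 high group alone.

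All mice were C57BL/6J, an inbred laboratory strain, with no other allele named, and began the diets as young adults. Simvastatin inhibits HMG-CoA reductase, an enzyme of cholesterol synthesis, and the statin groups received 0.1 g/kg in chow for 4 weeks. The methods give this dose per food weight and the labels per body weight. RNA of the whole liver was selected for poly(A) and made into strand-specific libraries from 3 female chow, 3 female statin, 3 male chow and 3 male statin livers, each a different mouse.

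An acute-phase response is the change in plasma proteins that the liver makes when cytokines from macrophages and other cells reach hepatocytes. Interleukin-6 acts through STAT3, and interleukin-1 and tumour necrosis factor act through NF-kappaB, and with C/EBP factors these switch on serum amyloid A, orosomucoid and haptoglobin genes. Cxcl1 is a chemokine that attracts neutrophils through the receptor Cxcr2, and Socs3 is an inhibitor that the STAT3 pathway induces against itself. Serum amyloid A genes are known for a range of levels in mouse liver that spans from traces to among the most abundant transcripts.

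Promoter sequences are shown for Cxcl1, which had the largest statin minus chow difference of the 10 genes, and for Saa1, Saa2 and Orm2, which differed between the sexes on both diets. Lcn2 did so too, but its window lies within the annotated gene and is not shown. Each is the 250 bases before the transcription start in RefSeq on GRCm38.p6, written 5′ to 3′ on the strand of the gene, and for Cxcl1 and Saa2 its end reaches into the GENCODE gene model. Capitals mark matches on either strand to GGG followed by any 5 bases and CC, a letter pattern of NF-kappaB sites, or to TTGCNCAA, a pattern of C/EBP sites, and overlapping matches run together. Cxcl1 lies at chr5:90890995-90891244 on the plus strand, Saa1 at chr7:46742981-46743230 on the minus strand, Saa2 at chr7:46751583-46751832 on the plus strand and Orm2 at chr4:63362199-63362448 on the plus strand.
Cxcl1: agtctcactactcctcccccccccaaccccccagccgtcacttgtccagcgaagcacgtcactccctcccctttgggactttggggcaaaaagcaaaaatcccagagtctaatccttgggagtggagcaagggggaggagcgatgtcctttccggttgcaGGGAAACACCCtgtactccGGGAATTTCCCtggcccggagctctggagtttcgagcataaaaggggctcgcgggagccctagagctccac
Saa1: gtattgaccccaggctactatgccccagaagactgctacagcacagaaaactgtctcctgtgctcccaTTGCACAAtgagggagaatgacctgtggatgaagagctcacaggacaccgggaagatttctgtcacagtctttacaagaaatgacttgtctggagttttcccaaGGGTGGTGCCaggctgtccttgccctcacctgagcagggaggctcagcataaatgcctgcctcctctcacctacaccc
Saa2: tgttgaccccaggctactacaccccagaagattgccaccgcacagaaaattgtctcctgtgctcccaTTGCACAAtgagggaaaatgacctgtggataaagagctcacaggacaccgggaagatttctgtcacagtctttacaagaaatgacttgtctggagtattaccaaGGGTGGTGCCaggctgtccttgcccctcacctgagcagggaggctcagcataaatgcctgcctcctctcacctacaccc
Orm2: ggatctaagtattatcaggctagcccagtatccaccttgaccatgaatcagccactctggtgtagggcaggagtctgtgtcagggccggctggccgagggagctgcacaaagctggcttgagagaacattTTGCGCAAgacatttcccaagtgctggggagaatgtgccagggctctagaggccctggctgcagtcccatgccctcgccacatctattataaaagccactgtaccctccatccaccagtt

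The C/EBP pattern was present in 4 of the 9 promoters matched to RefSeq (Saa1, Saa2, Lcn2 and Orm2; all members but Hp matched) and in 2.61% of the 32851 mouse promoters of the same length. The NF-kappaB pattern was present in 7 of the 9, with more than 1 run in Cxcl1, Crp and Tnfaip2, and in 45.8% of all promoters. The STAT pattern TTCNNNGAA was present in 1, Socs3, and in 7.02% of all promoters. The Saa1 and Saa2 promoters, identical at 94.8% of aligned positions, carry the same matched letters and are not independent. These patterns were chosen after the promoters had been read, and a match describes the letters only.

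The depth of the libraries was between 46066381 and 60419223 counts. A gene with 0 reads could lie at up to 0.0497 to 0.0651 CPM (3 counts) in a library, for counting error alone. Alb, the albumin gene, held from 5.71% to 12.7% of all counts. Summed over 8 hepatocyte markers, the level was between 78364 and 162190 CPM, and all 8 were above the filter in these livers. Replicates were different mice, so the p-values measure the spread among these 12 animals.

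Levels are given as TMM-normalized CPM, that is library-scaled counts after edgeR's further scaling for library composition, and differences as log2 values with their standard error (SE) from edgeR's quasi-likelihood fit to the 4 groups. In whole liver, fewer cells of a type and less RNA per cell cannot be told apart. On chow 6 of the 10 genes differed between the sexes at an adjusted p-value under 0.05, all 6 higher in females. Of all genes tested 10.4% passed in this comparison and 5.96% passed as higher in females. Cxcl1 and Socs3 are among the 6, and their values rest on the female chow livers by which they were chosen. Without them 4 of 8 passed. On statin 5 of the 10 passed, all 5 higher in females, where 6.28% of all genes passed and 4.38% were higher in females. Tnfaip2 is among these and rests on the male statin livers by which it was chosen, and without it 4 of 9 passed. Lcn2, also under an unadjusted 0.05 between statin and chow males, is among these 4 and shares this limit on statin. Saa1, Saa2, Lcn2 and Orm2 passed on both diets, as did 3.73% of all genes and 2.42% as higher in females. These comparisons share no liver, but they share the estimate of the spread from the fit to the 4 groups, so they are not independent. Saa1 and Saa2, with r = 0.99 between them over the 12 livers, are not independent of each other either. DESeq2 called 6 of the 10 on chow (16.3% of all genes) and 6 on statin (10.7%), and limma with pseudocount 1 called 6 (11%) and 5 (6.33%). The median log2 difference of female minus male was 2.24 over those 8 genes on chow and 0.83 over those 9 on statin, against -0.01 on each diet over all genes tested.

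**Figure D1:**
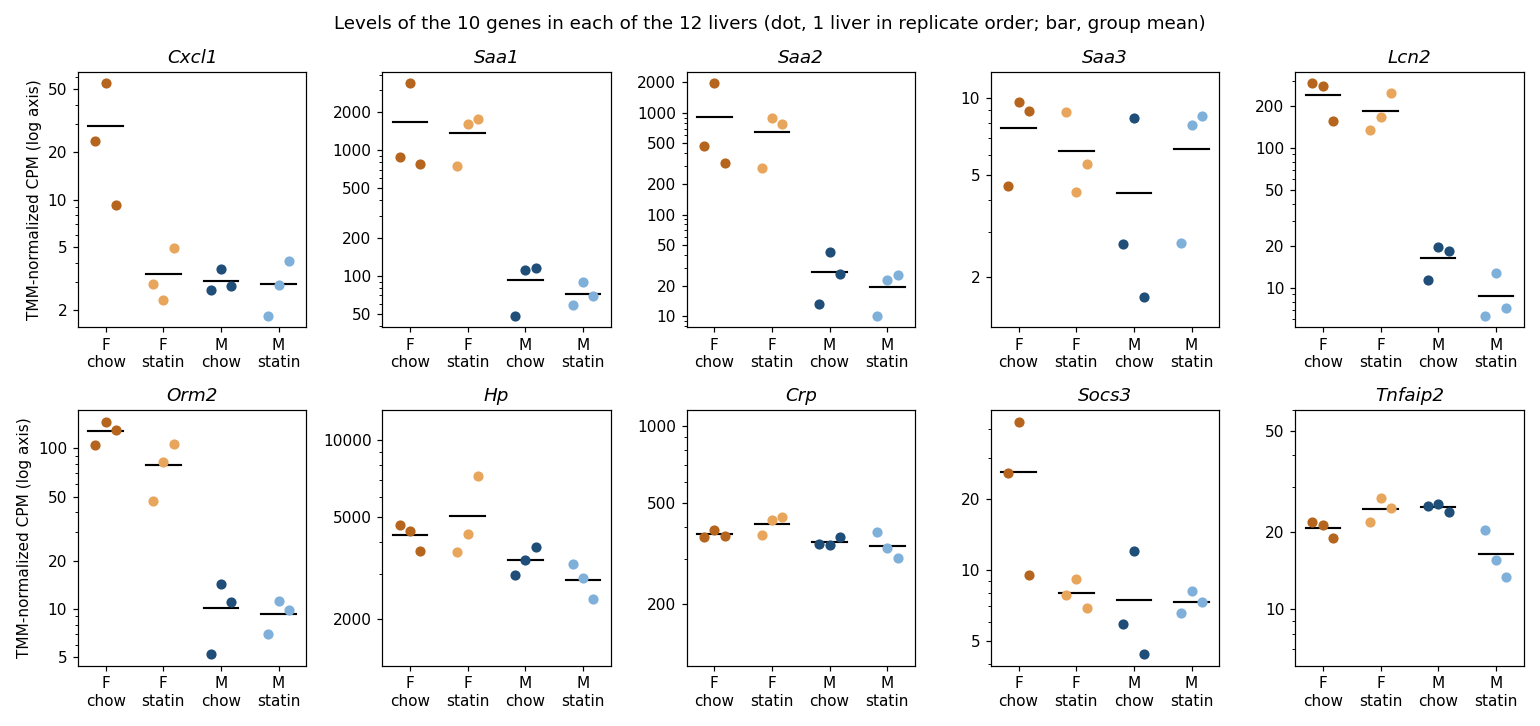
TMM-normalized CPM on a log axis for each gene, with 1 dot per liver in replicate order and a bar at the mean of the 3 livers of female (F) and male (M) chow and statin groups. All 6 female livers lie above all 6 male livers for Saa1, Saa2, Lcn2 and Orm2, and the 3 female chow livers lie above the other 9 for Cxcl1.

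Cxcl1 (ENSMUSG00000029380.11) lies on chromosome 5 of GRCm38 from 90891241 to 90893115 on the plus strand, and no other annotated gene overlaps it. Its level was 23.6, 54.4 and 9.25 CPM in female chow replicates 1 to 3 and 2.94, 2.31 and 4.95 CPM in female statin. In males it was 2.67, 3.64 and 2.85 CPM on chow and 1.85, 2.88 and 4.09 CPM on statin. The lowest female chow liver was thus above every other liver, while the female statin, male chow and male statin livers overlapped one another. Mean levels were 29.1 ± 23.1 CPM (chow) and 3.40 ± 1.38 CPM (statin) among females, against 3.06 ± 0.518 and 2.94 ± 1.12 CPM among males (SD, n = 3). The log2 difference of statin minus chow was -3.10 (SE 0.54) in females and -0.06 (SE 0.53) in males. Without female chow replicate 2, the highest liver, the value in females was -2.27. On chow the females exceeded the males by 3.25 (SE 0.55) on the log2 scale, or by 2.42 without that liver, and on statin by 0.21 (SE 0.53), a value that turned to -0.17 without female statin replicate 3 and to -0.04 without male statin replicate 1. The chow value belongs to the livers by which Cxcl1 stood out, so it is a description. The spread among the chow females was wide, their highest liver being 5.88 times the lowest.

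Neutrophil chemokines related to Cxcl1 and the receptor were scarce. The neutrophil chemokines Cxcl2 and Cxcl5 were at most 0.334 and 0.103 CPM, and Cxcl3 had 0 reads in the 12 livers, which allows up to the limit of 3 counts given above. The receptor gene Cxcr2 was at most 0.439 CPM. Neutrophil markers were low too. Summed over 11 neutrophil markers, of which 1 (Csf3r) was above the filter, chow females had between 5.63 and 8.87 CPM and statin females 7.31 to 10.5 CPM, against 3.21 to 6.02 and 3.40 to 3.93 CPM for the males. Ly6g, which defines mouse neutrophils, had 0 reads in 3 of the 4 groups and 3 or fewer per liver in female chow. These sums overlapped between chow and statin females and between the sexes on chow, while on statin every female was above every male. Csf3r passed as higher in females on statin, as did 4.38% of all genes. The part of neutrophils in the Cxcl1 and Lcn2 levels was not tested.

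Saa1 and Saa2 encode the main serum amyloid A proteins of mouse plasma, carried on high-density lipoprotein in inflammation. They are neighbours on chromosome 7, Saa1 (ENSMUSG00000074115.5) from 46740497 to 46742980 on the minus strand and Saa2 (ENSMUSG00000057465.5) from 46751790 to 46754313 on the plus strand. Saa1 was at 885, 3398 and 782 CPM in female chow and 753, 1608 and 1774 CPM in female statin. Male livers stood at 48.3, 112 and 116 CPM on chow and 59.2, 89.1 and 68.8 CPM on statin. Every female liver was above every male liver, and within each sex the diets overlapped. The log2 difference of female minus male was 4.19 on chow (SE 0.60, adjusted p = 0.00106, edgeR) and 4.25 on statin (SE 0.61, adjusted p = 0.00120, edgeR). Female means were 18.3 times the male mean on chow and 19.0 times on statin. Without female chow replicate 2 the chow difference was 3.17, and it passed the threshold with each liver left out in turn.

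Saa2 showed the largest difference between the sexes among the 10 genes on both diets. Its level was 476, 1946 and 319 CPM in female chow and 285, 886 and 780 CPM in female statin. The males were at 13.1, 42.6 and 25.7 CPM on chow and 10.1, 22.5 and 25.2 CPM on statin. The female and male livers were again fully apart. Females minus males gave a log2 difference of 5.07 on chow (SE 0.78, adjusted p = 0.00169, edgeR) and 5.08 on statin (SE 0.78, adjusted p = 0.00202, edgeR). Female chow replicate 2 was the highest liver for both genes, and without it the chow difference of Saa2 was 3.87. The statin minus chow difference in females was -0.29 (SE 0.53) for Saa1 and -0.49 (SE 0.65) for Saa2. Without that one chow liver these turned to 0.73 and 0.72. In males the differences were -0.35 (SE 0.53) and -0.50 (SE 0.66). Across their transcripts 93.9% of aligned positions are identical, and 74 of the 560 windows of 50 bases in Saa1 also occur in Saa2, so the division of reads between them is uncertain.

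Saa3, an amyloid A gene expressed in macrophages and fat as well as liver, showed no difference between the sexes past the threshold. It lies on the minus strand of chromosome 7 from 46711998 to 46715700 (ENSMUSG00000040026.8). Its level was 4.53, 9.63 and 8.88 CPM in female chow and 8.85, 4.28 and 5.54 CPM in female statin. Male values were 2.69, 8.39 and 1.67 CPM on chow and 2.71, 7.87 and 8.49 CPM on statin. All 4 groups overlapped. The log2 difference of female minus male was 0.85 on chow (SE 0.57, adjusted p = 0.396, edgeR) and -0.03 on statin (SE 0.56, adjusted p = 0.989, edgeR), the latter changing sign with other settings. Without male chow replicate 2 the chow value was 1.81. The statin minus chow difference was -0.30 (SE 0.56) in females and 0.58 (SE 0.57) in males, or 1.54 in males without male chow replicate 2. Of the 557 windows of 50 bases in Saa2 0 occur in Saa3, and of the 560 in Saa1 9 do.

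Orm2 encodes an orosomucoid, an acid glycoprotein of plasma that binds drugs and lipids. It lies on the plus strand of chromosome 4 from 63362449 to 63365878 (ENSMUSG00000061540.3). Its level was 105, 146 and 130 CPM in female chow and 46.6, 81.5 and 106 CPM in female statin. In males it was 5.25, 14.3 and 11.1 CPM on chow and 7.01, 11.2 and 9.85 CPM on statin. The female and male livers did not overlap. On the log2 scale females minus males differed by 3.64 on chow (SE 0.38, adjusted p = 9.51e-05, edgeR) and 3.06 on statin (SE 0.37, adjusted p = 0.000317, edgeR), and with each liver left out in turn both stayed past the threshold. The statin minus chow difference was -0.70 (SE 0.34) in females, where female statin replicate 3 lay within the chow range, and -0.13 (SE 0.35) in males. Orm2 shares 148 of its 726 windows of 50 bases with Orm1 and 26 with Orm3, so reads of the 3 genes may not be fully separated.

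Lcn2 encodes lipocalin 2, which withholds iron from bacteria by binding their siderophores, and is made by hepatocytes and neutrophils. It lies on the minus strand of chromosome 2 from 32384633 to 32388252 (ENSMUSG00000026822.14). Its level was 289, 277 and 155 CPM in female chow and 136, 167 and 248 CPM in female statin. Among males it stood at 11.5, 19.5 and 18.3 CPM on chow and 6.34, 12.7 and 7.22 CPM on statin. The lowest female liver was far above the highest male liver. The log2 difference of female minus male was 3.87 on chow (SE 0.36, adjusted p = 3.52e-05, edgeR) and 4.39 on statin (SE 0.37, adjusted p = 1.38e-05, edgeR). The statin minus chow difference was -0.39 (SE 0.32) in females and -0.91 (SE 0.33) in males, with overlap of the diets in both sexes.

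Neither Hp nor Crp passed the threshold between the sexes on either diet. Hp encodes haptoglobin, which captures free haemoglobin, and lies on the minus strand of chromosome 8 from 109575128 to 109579172 (ENSMUSG00000031722.9). Its level was 4664, 4406 and 3676 CPM in female chow and 3654, 4314 and 7241 CPM in female statin. In males it was 2972, 3405 and 3842 CPM on chow and 3278, 2882 and 2385 CPM on statin. The sexes overlapped on chow and were separate on statin. The sexes (female minus male) differed in log2 level by 0.32 on chow (SE 0.24, adjusted p = 0.458, edgeR) and 0.83 on statin (SE 0.24, adjusted p = 0.0619, edgeR). DESeq2, the fit without a filter and the fit without female statin replicate 1 each took the statin value past the threshold, with adjusted p-values of 0.00889, 0.0310 and 0.0223, while without female statin replicate 3, the highest liver, the difference was 0.49. Whether Hp differed on statin thus depends on the setting. Between diets, statin minus chow was 0.25 (SE 0.24) in females, turning to -0.08 without female statin replicate 3, and -0.26 (SE 0.24) in males.

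Crp encodes C-reactive protein, a pentraxin that in the mouse is known as only a weak acute-phase reactant. It lies on the plus strand of chromosome 1 from 172698055 to 172833031 (ENSMUSG00000037942.5), and the pseudogene Gm38051 overlaps it on the same strand. Its level ran from 367 to 389 CPM in female chow, 374 to 437 in female statin, 342 to 368 in male chow and 303 to 383 in male statin. These ranges are narrow and lie close together. The log2 difference of female minus male was 0.09 on chow (SE 0.13, adjusted p = 0.704, edgeR) and 0.28 on statin (SE 0.13, adjusted p = 0.231, edgeR). Statin minus chow gave 0.14 (SE 0.13) in females and -0.05 (SE 0.13) in males.

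Socs3, the inhibitor of STAT3 signalling, was the member whose pattern over the livers was nearest to that of Cxcl1 (Pearson's r of 0.91 on log2(CPM + 1) over the 12 livers, which share their libraries). It lies on the minus strand of chromosome 11 from 117966079 to 117970047 (ENSMUSG00000053113.3). Its level was 25.8, 42.9 and 9.53 CPM in female chow and 7.84, 9.21 and 6.90 CPM in female statin. The males had 5.90, 12.1 and 4.39 CPM on chow and 6.54, 8.16 and 7.30 CPM on statin. The female chow livers were above the female statin livers, but male chow replicate 2 was above female chow replicate 3. The statin minus chow difference was -1.71 (SE 0.46) in females, or -1.14 without female chow replicate 2, and -0.03 (SE 0.45) in males. On chow the females exceeded the males by 1.80 (SE 0.46) on the log2 scale and passed the threshold, and on statin by 0.12 (SE 0.45) and did not. The chow call was lost, with differences of 1.80, 1.24, 1.66 and 1.54, when female chow replicate 1 or 2 or male chow replicate 1 or 3 was left out, and like that of Cxcl1 it rests on livers of the contrast by which the genes were chosen. On statin the sign turned to -0.01 without female statin replicate 2.

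Tnfaip2, a gene induced by tumour necrosis factor in endothelial and myeloid cells, lay between 13.3 and 27.1 CPM in all livers. It lies on the plus strand of chromosome 12 from 111442469 to 111455018 (ENSMUSG00000021281.15), with the antisense gene Gm40578 overlapping it. Since the strand setting of the authors' counting is not given in the sources used here, reads of this pair may not be separated. Its level was 21.9, 21.4 and 19.0 CPM in female chow and 21.9, 27.1 and 24.96 CPM in female statin. Male livers were at 25.4, 25.8 and 24.1 CPM on chow and 20.3, 15.6 and 13.3 CPM on statin. The male statin livers were below the male chow livers, in females the diets overlapped, and the chow females were below the chow males. The statin minus chow difference was -0.61 (SE 0.15) in males and 0.25 (SE 0.15) in females. Female minus male was, in log2, -0.27 on chow (SE 0.15, adjusted p = 0.289, edgeR). On statin it was 0.59 (SE 0.15) and passed the threshold, but it rests on the male statin livers by which Tnfaip2 was chosen. With each liver left out in turn that call held without female chow replicate 3, female statin replicate 1 or male statin replicate 1, and was lost without any of the other 9, with differences between 0.46 (male statin replicate 3) and 0.59.

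**Figure D2:**
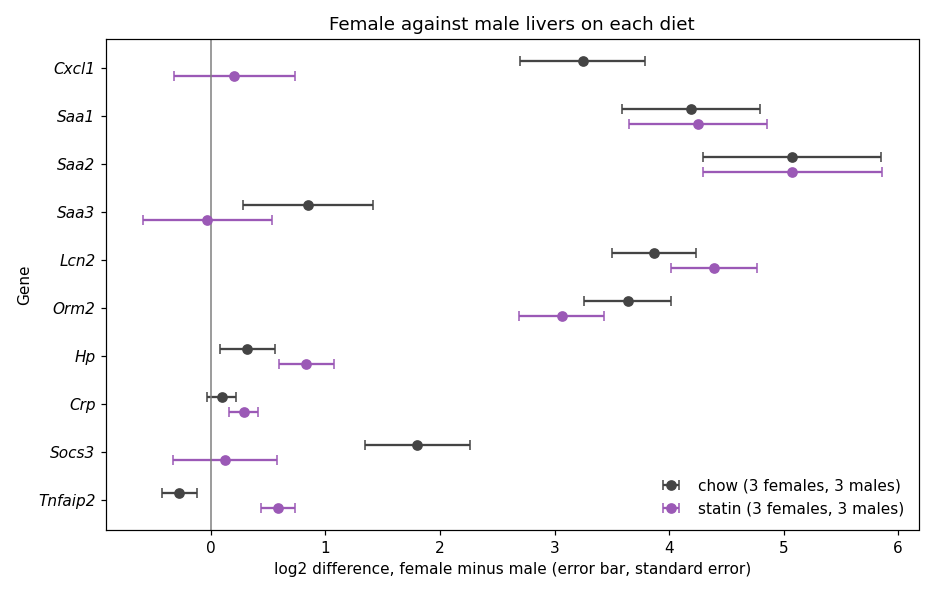
log2 difference of female minus male livers for each gene on chow (dark) and on statin (purple), with the standard error of edgeR's fit and 3 livers per sex. Saa1, Saa2, Lcn2 and Orm2 lie between 3.06 and 5.08 on both diets, whereas Cxcl1 goes from 3.25 on chow to 0.21 on statin and Socs3 from 1.80 to 0.12.

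**Figure D3:**
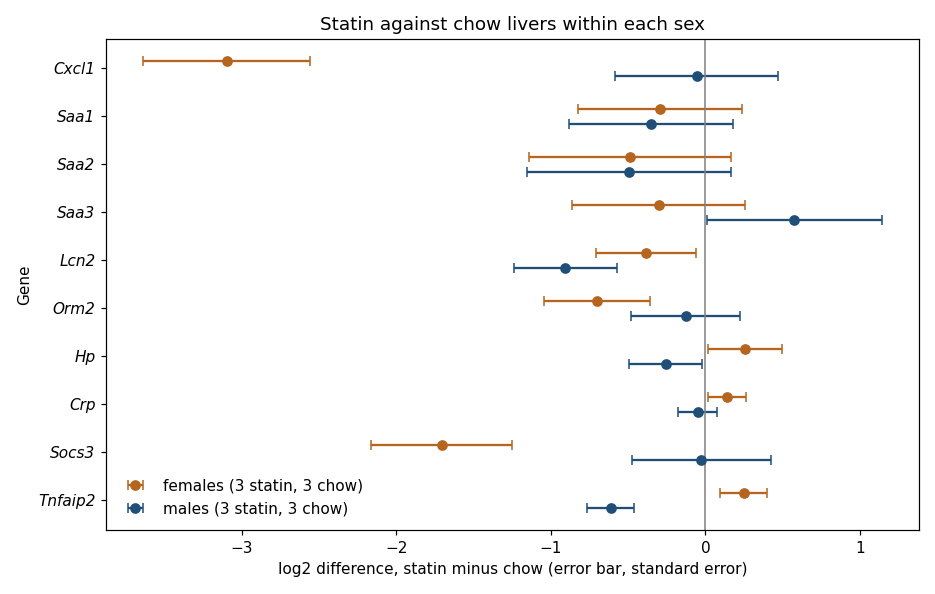
log2 difference of statin minus chow for each gene in females (brown) and males (blue), with the standard error of edgeR's fit and 3 livers per diet. In females the value is -3.10 for Cxcl1 and -1.71 for Socs3 and the others lie between -0.70 and 0.25, and in males the values range from -0.91 for Lcn2 to 0.58 for Saa3.

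For the statin contrasts the genes were selected on these same values, so the following counts are given without any reading. Among females edgeR called 0 of the 10 at an adjusted 0.05, where it called 12 genes in all or 0.1%. Without adjustment, p-values under 0.05 were found for Cxcl1 and Socs3, 2 of the 10, and for 10.5% of all genes. DESeq2 called these 2 genes in females beside 2.26% of all genes, and limma called 0 of the 10 beside 0.109%. In males 0 of the 10 and 0% of all genes passed in edgeR, while 2 of the 10 (Lcn2 and Tnfaip2) and 1.96% of all genes were under an unadjusted 0.05, and DESeq2 and limma called 0 of the 10 beside 0.0334% and 0% of all genes. For the response in females minus that in males 0 of the 10 and 0% of all genes passed in edgeR, and 3 of the 10 (Cxcl1, Socs3 and Tnfaip2) and 8.01% of all genes were under an unadjusted 0.05. DESeq2 called 2 there (Cxcl1 and Tnfaip2) beside 1.02% of all genes, and limma 0 beside 0%. Statin and chow livers did not overlap for 2 of the 10 in females (Cxcl1 and Socs3), against 12% of all genes, and for 1 in males (Tnfaip2), against 7.95%. The female minus male statin response was -3.04 (SE 0.74) for Cxcl1, -1.68 (SE 0.64) for Socs3 and 0.86 (SE 0.21) for Tnfaip2. It was -2.23 for Cxcl1 without female chow replicate 2 and 1.04 for Tnfaip2 without male statin replicate 1.

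Compared per kilobase of transcript, Hp had the highest mean level of the 10 genes in each group, from 2118 CPM per kilobase in male statin to 3769 in female statin. In females Saa1 came next, at 2772 CPM per kilobase on chow and 2263 on statin, with ranges that overlapped those of Hp. In males Crp came next, at 207 and 200 CPM per kilobase, above Saa1 at 152 and 119, and neither range overlapped its neighbours. Cxcl1 was seventh in female chow at 30.5 CPM per kilobase, overlapping Saa3 at 13.8, and ninth in the other 3 groups at 3.08 to 3.57, overlapping Socs3 there. The order of the members thus differed between the sexes in the place of the serum amyloid genes, whose female means in Saa1 and Saa2 exceeded those of Crp.

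The genes also differed in how much livers of 1 group varied. The SD of log2(CPM + 1) within groups was 0.97 for Saa2, 0.78 for Saa1, 0.70 for Saa3, 0.69 for Cxcl1 and 0.63 for Socs3, against a median of 0.21 over all genes. Orm2 and Lcn2 followed at 0.49 and 0.46. Hp had 0.31, Tnfaip2 0.17 and Crp 0.11. Among genes within 0.5 of its own log2 level, Saa2 was at percentile 99.8 of this spread and Crp at 8.98. Orm2 and Lcn2 were at percentiles 98.0 and 97.2 on this measure and Tnfaip2 at 42.5.

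**Figure D4:**
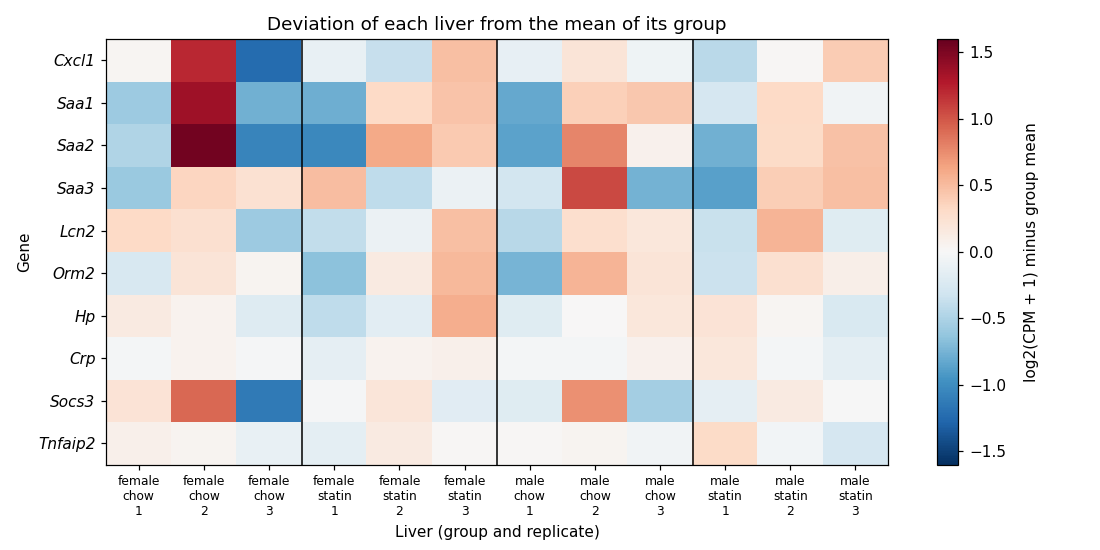
Deviation of log2(CPM + 1) from the mean of its group for each gene (rows) in each of the 12 livers (columns, grouped and numbered by replicate), from blue (below) to red (above). Female chow replicate 2 is highest in its group for 7 genes, and Crp and Tnfaip2 are pale throughout.

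Single livers stood out across several members. Female chow replicate 2 was the highest of its group for Cxcl1, Saa1, Saa2, Saa3, Orm2, Crp and Socs3, and replicate 3 was the lowest for 7 genes including Cxcl1, Saa1, Saa2, Lcn2 and Socs3. Among the chow males, replicate 2 was highest for 7 genes and replicate 1 lowest for 6. Female statin replicate 1 was lowest for 7 genes, and male statin replicate 1 was lowest for 7. As a description over deviations from the group means in the 12 livers, Cxcl1 correlated with Socs3 (r = 0.76), Saa2 (r = 0.76) and Saa1 (r = 0.70), and Saa1 with Saa2 (r = 0.94) and Orm2 (r = 0.74). Crp correlated with Tnfaip2 (r = 0.83) and Hp (r = 0.71), and with Cxcl1 gave r = -0.04. Negative values were found for Saa3 with Crp (r = -0.64), Tnfaip2 (r = -0.55) and Hp (r = -0.39). Hp also correlated with Lcn2 (r = 0.65), Orm2 (r = 0.49) and Tnfaip2 (r = 0.49). These genes share their libraries. In female chow replicate 2 the neutrophil marker sum was 8.87 CPM, next to 8.73 in replicate 1, the Kupffer cell and macrophage sum was 820 CPM, between the other 2 livers, and the monocyte sum was 10.7 CPM, the highest of the group. Male chow replicate 2 had the highest sums of its group for neutrophil (6.02 CPM), Kupffer cell and macrophage (611 CPM), monocyte (7.80 CPM) and T, NK and B cell markers (4.85 CPM). The part of these cells in the values was not tested.

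Among 11927 genes averaging 1 CPM or more, members left out, the pattern most like Cxcl1 over the 12 livers was that of Krtcap2 (r = 0.93), followed by Cdk20 (r = 0.93), Msrb3, Pbdc1 and Tdrkh (r = 0.90 each). The range of Krtcap2 is small, between 37.2 and 43.9 CPM in female chow and between 31.99 and 37.9 CPM in female statin. Cdk20 ran more widely, from 4.31 CPM in male statin to 9.12 CPM in female chow, and Tdrkh from 1.42 CPM in male chow to 3.34 CPM in female chow. For Saa1 the most alike were Tcf24 (r = 0.97), Icam1 (r = 0.96), Hpx (r = 0.96), Cyth3 (r = 0.96) and Aldh3b3 (r = 0.96), with every female liver above every male liver. Hpx encodes hemopexin, a haem-binding acute-phase protein, and Icam1 an adhesion molecule for leukocytes. With the group means taken out, r with Saa1 was 0.57 for Hpx, 0.42 for Aldh3b3 and 0.74 for Icam1.

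To see whether the wider pathway shared the sex difference, 102 other genes of inflammation and acute-phase biology in 6 lists were read in the same fit, of which 85 were above the filter. On chow 16 were higher and 5 lower in females by edgeR (adjusted p-value under 0.05), or 24.7% of the 85, where 10.4% of all genes passed. On statin 12 were higher and 3 lower, or 17.6%, where 6.28% of all genes passed. Of these, 10 genes passed on both diets (Apcs, Cd14, Chuk, Egr1, Hpx, Icam1, Il1rap, Il1rn, Orm3 and Vcam1), where 3.73% of all genes did. The chow count dropped to 13, 12, 11 and 12 without female chow replicate 1 or 2 or male chow replicate 1 or 3, and the statin count to 8, 6 and 9 without male statin replicate 1, 2 or 3. With statin against chow 0 of the 85 passed in females or males in edgeR, and 11 and 2 were under an unadjusted 0.05, as were 10.5% and 1.96% of all genes. DESeq2 called 1 in females and 0 in males, and limma 0 in both.

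**Figure D5:**
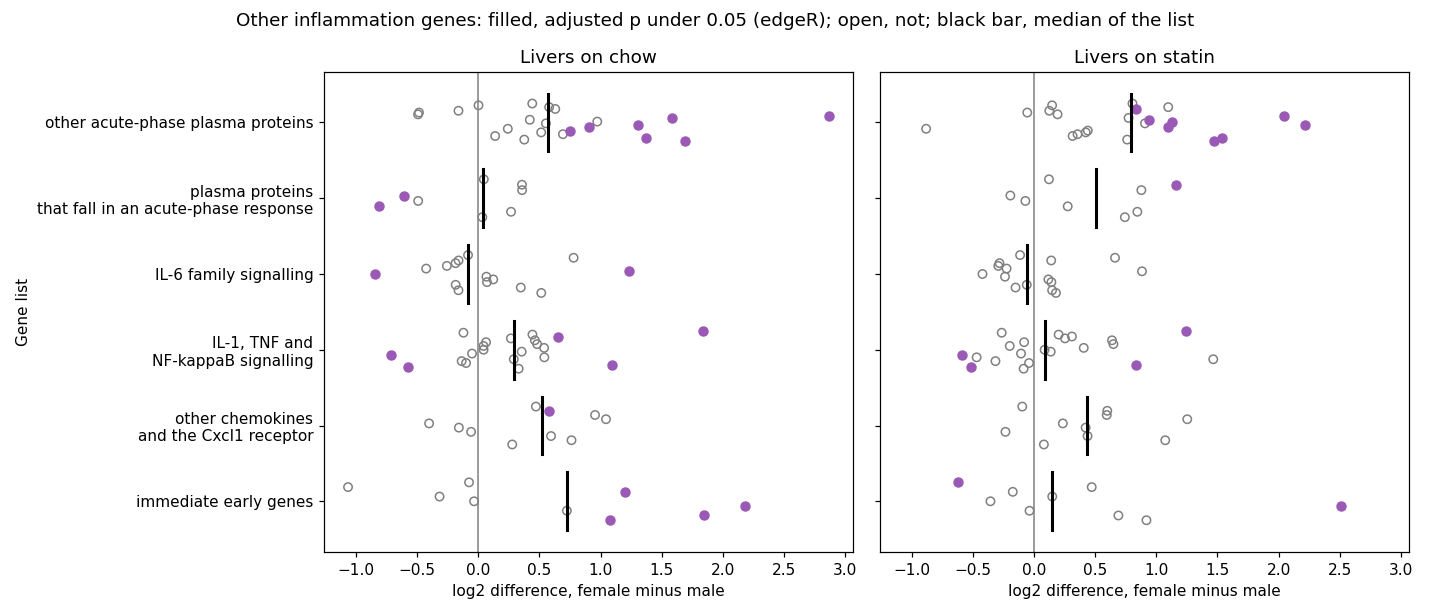
log2 difference of female minus male for the 85 tested genes of the 6 lists on chow (left) and statin (right), filled where the adjusted p-value of edgeR was under 0.05, with a black bar at the median of each list. The other acute-phase plasma proteins hold 7 filled genes on chow and 8 on statin, all to the right of 0.

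The genes called among the other acute-phase plasma proteins were all higher in females. Of 22 genes, all tested, 7 were higher and 0 lower in females on chow, and 8 and 0 on statin, with median log2 differences of 0.57 and 0.79. For this and the lists that follow, the median over all genes was -0.01 on each diet, with 5.96% of all genes called higher in females on chow and 4.38% on statin. Called in either direction were 10.4% on chow and 6.28% on statin. Orm3, another orosomucoid, was at 17.7 ± 4.64 CPM in female and 2.43 ± 0.327 CPM in male chow livers (SD, n = 3), a log2 difference of 2.87 (SE 0.41, adjusted p = 0.00107, edgeR). Orm1, the most abundant orosomucoid, differed by 1.59 on chow (SE 0.25, adjusted p = 0.00201, edgeR) and by 0.77 on statin (SE 0.25, adjusted p = 0.0912, edgeR). Cd14, the co-receptor for bacterial lipopolysaccharide, differed by 1.37 on chow (SE 0.22, adjusted p = 0.00238, edgeR) and 1.54 on statin (SE 0.22, adjusted p = 0.00142, edgeR). Il1rn, the antagonist of the interleukin-1 receptor, differed by 2.21 on statin (SE 0.32, adjusted p = 0.00147, edgeR). Hpx was at 8164 ± 1149 CPM in female and 3824 ± 402 CPM in male statin livers (SD, n = 3), a log2 difference of 1.09 (SE 0.16, adjusted p = 0.00175, edgeR). None of these differences reached the size seen for Saa1, Saa2 and Lcn2.

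Of 8 plasma proteins that an acute-phase response lowers, 2 were lower in females on chow, Apoa1 with -0.81 (SE 0.18, adjusted p = 0.0136, edgeR) and Rbp4 with -0.61 (SE 0.14, adjusted p = 0.0194, edgeR). Of all genes 10.4% passed on chow in either direction and 5.96% as higher in females. Apoa1 is the main protein of high-density lipoprotein, and Rbp4 carries retinol. On statin neither passed, and 1 gene, the transferrin gene Trf, was higher in females by 1.16 (SE 0.21, adjusted p = 0.00635, edgeR). The list's median log2 difference was 0.04 on chow and 0.51 on statin.

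Of 17 genes of interleukin-6 family signalling 15 were tested, and the cytokine gene Il6 itself was at most 0.156 CPM. On chow Osmr, the oncostatin M receptor, was higher in females by 1.23 (SE 0.30, adjusted p = 0.0234, edgeR) and Lifr, the receptor of leukaemia inhibitory factor, was lower with -0.84 (SE 0.20, adjusted p = 0.0205, edgeR). On statin 0 passed in edgeR, DESeq2 or limma, with 2 under an unadjusted 0.05. The list's median was -0.08 on chow and -0.06 on statin.

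Of 22 genes of interleukin-1, tumour necrosis factor and NF-kappaB signalling 21 were tested, and Tnf was at most 0.377 CPM. On chow 3 were higher in females, namely Icam1 by 1.10 (SE 0.15, adjusted p = 0.000723, edgeR), Vcam1 by 1.84 (SE 0.28, adjusted p = 0.00153, edgeR) and the receptor gene Tnfrsf1a by 0.65 (SE 0.12, adjusted p = 0.00432, edgeR). Il1rap and Chuk, an interleukin-1 co-receptor and a kinase of the NF-kappaB pathway, were lower in females on both diets. On statin Icam1 differed by 0.84 (adjusted p = 0.00582, edgeR), Vcam1 by 1.24 (adjusted p = 0.0182, edgeR) and Il1rap by -0.59 (adjusted p = 0.0185, edgeR). Of 20 other chemokine genes and Cxcl1 receptors 10 were tested, and 1 passed on chow, Cxcl16, a chemokine of macrophages and endothelium, higher in females by 0.57 (SE 0.17, adjusted p = 0.0469, edgeR). On statin 0 passed in edgeR, 2 in DESeq2 and 1 in limma, with 3 under an unadjusted 0.05.

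Of 13 immediate early genes, which many stimuli induce within minutes and which handling can also induce, 9 were tested. On chow 4 were higher in females, with Btg2 at 1.85 (SE 0.28, adjusted p = 0.00169, edgeR), Junb at 1.20 (SE 0.30, adjusted p = 0.0263, edgeR) and Atf3 at 1.08 (SE 0.29, adjusted p = 0.0346, edgeR), besides Egr1. For Junb the mean was 46.1 ± 18.4 CPM for chow females and 18.7 ± 7.84 CPM for statin females, the male means being 20.1 ± 3.25 and 21.1 ± 1.44 CPM (SD, n = 3), highest in female chow as for Cxcl1 and Socs3. Btg2, Atf3, Dusp1 and Egr1 also had their highest mean in female chow, Egr1 with 13.7 CPM against 13.2 CPM in female statin. Jun, Ier2, Zfp36 and Myc, the other tested genes of the list, did not. On statin Egr1 was higher in females by 2.51 (SE 0.65, adjusted p = 0.0389, edgeR) and Zfp36, which destabilises cytokine transcripts, was lower with -0.62 (SE 0.17, adjusted p = 0.0499, edgeR). Their part in the levels of Cxcl1 and Socs3 was not tested.

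Markers of other liver cells moved with sex too. Summed over 11 Kupffer cell and macrophage markers, all above the filter, females had between 769 and 910 CPM on chow and 666 and 1027 CPM on statin. In males it was between 387 and 611 CPM on chow and 396 and 489 CPM on statin. All 6 females were above all 6 males, and 6 of the 11 markers passed as higher in females on chow and 8 on statin, where 5.96% and 4.38% of all genes did, with median log2 differences of 0.80 and 0.99 against -0.01 on each diet over all genes. Cd5l, a protein secreted by macrophages and the highest of the list, was at a mean of 188 CPM in female and 106 CPM in male chow livers. The sums of 7 endothelial markers on chow were between 318 and 360 CPM in females and 206 and 293 CPM in males, and those of 7 stellate cell markers between 317 and 366 and between 201 and 212 CPM, and on statin both overlapped. Dcn and Clec4g led these lists, at 201 and 84.9 CPM in female chow. The sums of 5 monocyte markers, led by Fcgr1, were between 7.51 and 10.7 CPM in female and 4.34 and 7.80 CPM in male chow livers, and did not overlap on statin, at 7.83 to 12.4 CPM in females and 4.31 to 6.56 CPM in males. On statin only Fcgr1 was separate, at 5.17 to 9.11 CPM in females and 2.83 to 4.01 CPM in males, and the other monocyte markers overlapped. On chow the means of Ly6c2, Chil3 and F13a1 were lower in females and that of Ccr2 was higher. The hepatocyte sums overlapped between the sexes on chow and not on statin, where they were between 117445 and 162190 CPM in females and 83000 and 100317 CPM in males, with Alb at 9.85% to 12.7% and 6.34% to 7.13% of the counts. Alb, at a mean of 117830 CPM in female statin, made up most of these sums. On statin 0 of the 8 hepatocyte markers passed, where 6.28% of all genes did, and their median log2 difference was -0.02. Tat went the other way, at 630 to 823 CPM in statin females and 1146 to 1330 CPM in statin males. Cholangiocyte sums (5 markers, led by Sox9) were between 2.49 and 9.53 CPM over all livers. For 7 T, NK and B cell markers, of which 0 were above the filter, the sums did not overlap between chow females (3.00 to 4.13 CPM) and statin females (5.90 to 8.13 CPM), as Cxcl1 and Socs3 did not, and the part of these cells in that contrast was not tested. In males the sums overlapped, at 2.23 to 4.85 CPM on chow and 2.58 to 5.33 CPM on statin. Ms4a1, the highest of them by its mean over all livers, was at a mean of 0.648 CPM in chow and 1.61 CPM in statin females. The log2 differences of Saa1, Saa2, Lcn2 and Orm2 between the sexes were from 3.06 to 5.08, and the part of these cells in them was not tested.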

How the data were processed

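Poly(A) RNA of 12 mouse livers was sequenced in 4 groups of 3. The authors deposited raw counts of 11968 genes, in a table described as TMM-normalized but holding whole counts, and CPM values of 48526 genes scaled to the total of each library. The submitters' processing notes name STAR 2.4.1a, HTSeq and edgeR 3.28.1 on GRCm38; the strand setting of the counting is not given in the sources used here. All nonzero CPM values (100%) came out as whole reads within 0.05, and 0 values of the count table differed from those reads. The table's genes are those that exceeded 1 CPM in 6 or more livers. No value column was left out, and no file held comparisons by the authors.

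The counts were fitted with edgeR 4.0.16 in R 4.3.3 (quasi-likelihood test, two-sided, TMM, 4 groups in one fit, no covariate, common dispersion 0.0380), with Benjamini-Hochberg adjustment over all 11968 genes. DESeq2 1.42.0 and limma 3.58.1 were alternatives, beside other normalizations and filters, the compared groups alone, the replicate number as a block and each liver left out. The script was tested on simulated data. Figures and tables used Python 3.11.15, numpy 2.4.6, pandas 2.3.3 and matplotlib 3.10.9. The SE is that of the log2 difference. Gene positions, transcripts and overlaps come from GENCODE on GRCm38, another release than the authors', and promoters from RefSeq.

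The 10 genes, the lists and the tests were chosen with earlier results of these data known. Named besides the 10 genes were the called genes of each list, or the 3 with the smallest p-values of a comparison where more than 3 passed, the 5 genes most like Cxcl1 and the 5 most like Saa1, and the highest gene of each marker list; Apcs, Chuk and Egr1 on chow and genes under the filter were added after their values were seen.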

Additional observations from a re-analysis of the deposited data

How the results depend on the processing

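The female excess of Saa1, Saa2, Lcn2 and Orm2 on both diets kept its direction and stayed past the threshold under each alternative run. Over all genes the chow sex comparison (1250 called) gave 771 with a stricter filter, 1946 with DESeq2, 2151 with the compared groups alone, and 635 to 1586 with a liver left out. On statin (751) these gave 357, 1284, 292 and 378 to 743. Statin in females (12) gave 148 with no filter, 5 with a stricter filter, 270 with DESeq2, 0 with the compared groups alone, 5 with the replicate block and 0 to 75 with a liver left out. In males (0) DESeq2 gave 4. The response in females minus that in males (0) gave 103 with no filter, 122 with DESeq2 and 0 to 14 with a liver left out.

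Over the lists the chow sex count (21) was 35 with the compared groups alone and 11 to 25 with a liver left out, and the statin one (15) was 23 with no filter, 24 with DESeq2, 4 with the compared groups alone and 6 to 20 with a liver left out. Statin in females (0) gave 2 with no filter, 1 with DESeq2 and 0 to 1 with a liver left out, and the response in females minus males (0) gave 1 with DESeq2. The causes were not tested.

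Signs near 0 turned. The statin sex difference of Saa3 was 0.0415 and 0.0675 with limma at pseudocounts 1 and 0.1, 0.16 with the replicate block, and -0.39 to 0.23 with a liver left out. With a liver left out that of Cxcl1 lay between -0.17 and 0.52 and that of Socs3 between -0.0097 and 0.22. The statin minus chow difference in males turned to 0.51 for Socs3 and 0.20 for Orm2 without male chow replicate 2. It turned to 0.19 for Cxcl1 without male statin replicate 1 and to 0.02 for Crp without male statin replicate 3. Tnfaip2 on statin lost its call with library size alone (0.49), no filter (0.56), the compared groups alone (0.58) and the replicate block (0.60), and the block changed no other call of the 10 genes between the sexes. Same-numbered livers were different mice, and the number does not pair them: their deviations from the group means correlated at r from -0.75 to 0.67 over 18 pairs (mean -0.11). Pairs with different numbers reached 0.75, so single livers of different groups shared patterns, whose source was not tested.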
